A study of Sus scrofa with 48 samples.

Results

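The platelet and megakaryocyte genes of the porcine whole blood array were described over 48 pigs: PPBP, PF4, ITGA2B, ITGB3, GP9, GP1BA, GP6, TUBB1 and TREML1. Members were the spots that carried one of these 9 symbols as gene name in the scanner files and that the study had retained for analysis. There were 10 such spots among 37113 retained spots, and they stood for 5 of the 9 genes: PPBP, ITGB3, GP9, GP6 and TUBB1. No spot of the array carried PF4, ITGA2B, GP1BA or TREML1 as gene name, and every spot named for a member was retained. A further 9 retained spots could be tied to 6 of the genes through their accession, description, gene number or shared bases, and they are given beside the members. TREML1 had no spot by either route.

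The pigs were purebred French Large White castrated males of 2 lines divergently selected on residual feed intake (RFI), the feed eaten beyond that predicted from growth and maintenance. Low RFI pigs (RFIneg, the more efficient) and high RFI pigs (RFIpl) had free access to either a high fat, high fiber diet (HF) or a low fat, low fiber diet (LF), with 12 pigs in each of the 4 groups. Blood was drawn into EDTA at exsanguination at 132 days of age, and the RNA of each pig was hybridised to 1 single-colour Agilent array. The 48 arrays lay on 6 slides, each with 2 arrays of every group, and had been scanned on 3 days. Values are log2 signals minus the median of the array, and each of the 10 member spots was well above background on all 48 arrays, with no saturated array. Between 40771 and 46727 spots per array were well above background, and the number of arrays limits the precision of each comparison.

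Platelets are shed by megakaryocytes and have no nucleus, but keep messenger RNA from their parent cell, so whole blood RNA holds a platelet share. They bind exposed collagen through GP6 and von Willebrand factor through the GP1BA, GP1BB, GP5 and GP9 complex, then link to each other through the fibrinogen receptor formed by ITGA2B and ITGB3. Their alpha granules release the chemokines PPBP and PF4, and their disc shape rests on a ring of microtubules built with TUBB1, a beta tubulin of the megakaryocyte lineage. In whole blood, fewer platelets and less RNA per platelet cannot be told apart. Platelet counts were not analysed here.

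No member spot passed the adjusted threshold for line, diet or their interaction. With limma, 0 of 10 spots had an adjusted P-value under 0.05 for line, where 2.77% of the 37113 spots did (1027 spots). At an unadjusted P under 0.05, 1 of 10 passed, against 12.0% of all spots. For diet and for the interaction, 0 of 10 passed at either level, against 0.0% of all spots after adjustment for both effects, and 1.64% (diet) and 2.28% (interaction) before it. Analysis of variance of each spot also called 0 of 10 for each effect. Line estimates (low RFI minus high RFI) ran from -0.29 to 0.11, diet estimates (HF minus LF) from -0.02 to 0.10, and interaction estimates from -0.30 to 0.16 on the log2 scale. The outermost 95% confidence bounds over the 10 spots were -0.51 and 0.36 for line, -0.26 and 0.35 for diet, and -0.86 and 0.60 for the interaction.

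**Figure D1:**
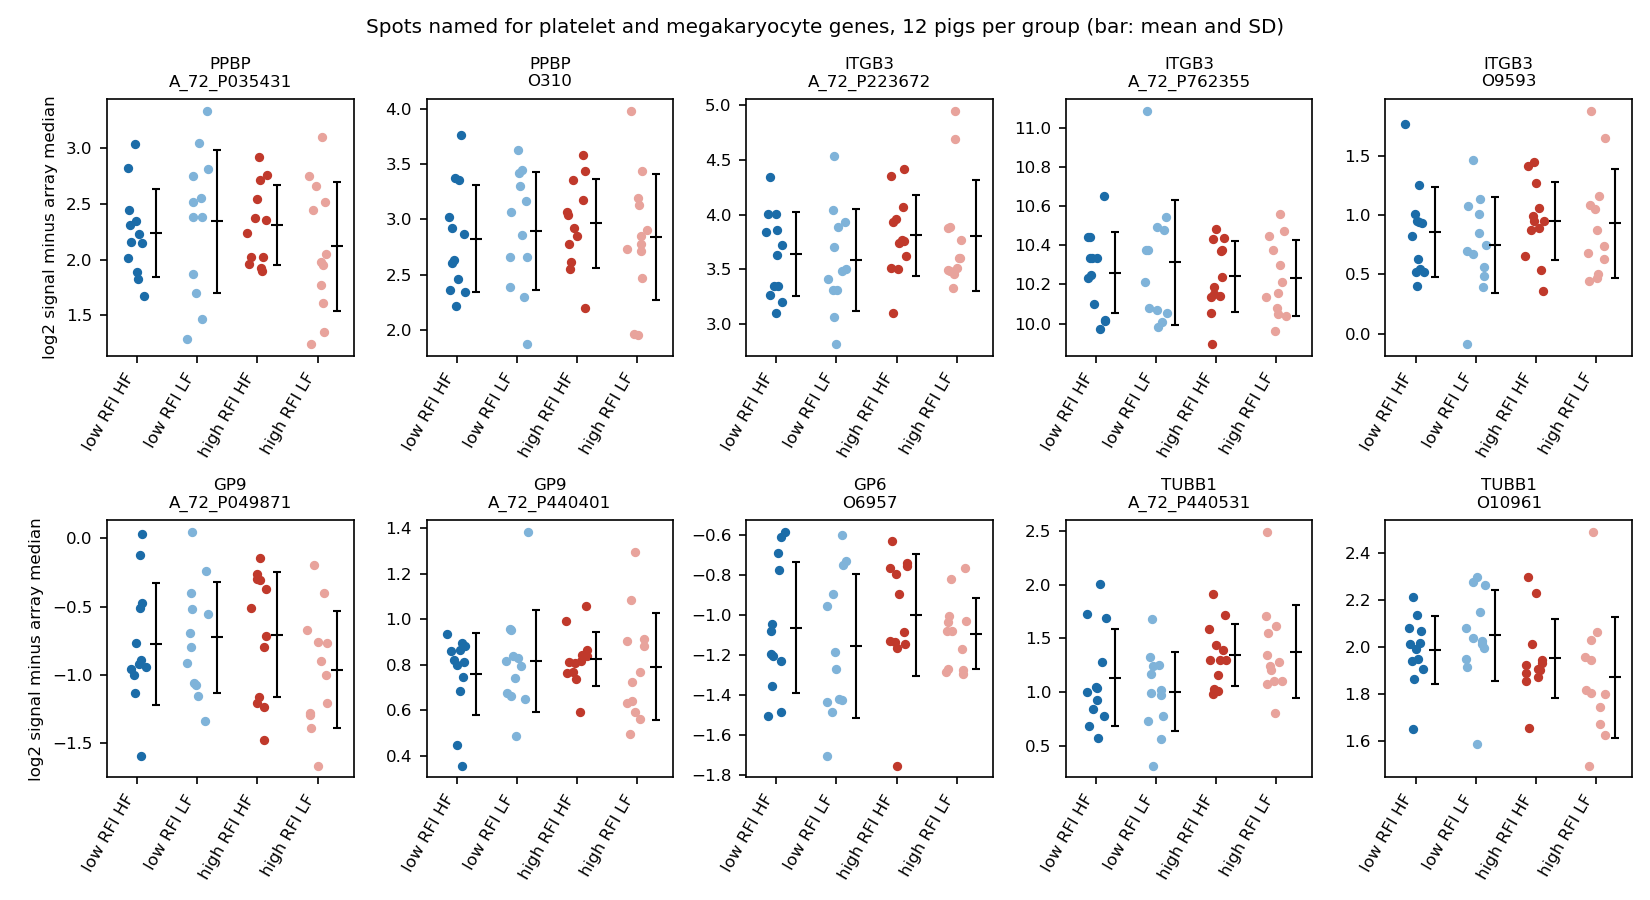
Level of each member spot (log2 signal minus array median) in the 4 groups; points are pigs (12 per group) and bars give mean and SD, with a separate scale per panel. The groups overlapped on all 10 spots.

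Both granule chemokines varied widely among pigs and little between groups. PPBP (pro-platelet basic protein, also called CXCL7), a chemokine that attracts neutrophils, was read by 2 named spots. Its spot A_72_P035431 ran, as lowest, median and highest pig, from 1.67 over 2.19 to 3.03 in low RFI HF pigs. In low RFI LF pigs it ran from 1.29 over 2.45 to 3.33. In high RFI HF pigs the span was 1.90, 2.29 and 2.92, and in high RFI LF pigs it was 1.24, 2.01 and 3.1. All 4 ranges overlapped, and both LF groups spread more than both HF groups (SD 0.64 and 0.58 against 0.39 and 0.36, a difference in spread that was not tested). Over all 48 pigs the highest pig lay 4.26-fold above the lowest. The line difference was 0.08 ± 0.14 (SE, adjusted P = 0.960) and the diet difference 0.05 ± 0.14 (adjusted P = 1.0).

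The second PPBP spot, O310, had medians of 2.75, 2.96, 2.98 and 2.82 in low RFI HF, low RFI LF, high RFI HF and high RFI LF pigs. Its line estimate was -0.04 ± 0.14 (SE, limma adjusted P = 0.974), on the other side of 0 from that of the first spot. Both PPBP spots followed each other closely over the pigs (Pearson r = 0.90, Spearman rho = 0.89, permutation P = 1e-05, the smallest the permutations can give). The sequence of the first spot is shown: in its first frame it held no stop codon before the last 3 bases (in capitals). It was not aligned to a transcript, so its position there is not known from these data.

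PPBP A_72_P035431: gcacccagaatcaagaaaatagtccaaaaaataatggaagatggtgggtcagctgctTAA

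A further PPBP spot under a RefSeq name carried the identical 60 bases, and its values followed those of A_72_P035431 with r = 0.98 (permutation P = 1e-05, n = 48). Its line estimate, 0.08, and its interaction estimate, -0.29, were close to those of the named spot. The other further PPBP spot, A_72_P442639, had r = 0.86 with A_72_P035431 and 0.89 with O310 (permutation P = 1e-05 each, n = 48). Its group means were 1.80, 2.04, 1.98 and 1.82 in low RFI HF, low RFI LF, high RFI HF and high RFI LF pigs, with a line estimate of 0.02 ± 0.12 and an interaction estimate of -0.41 ± 0.25 (SE, limma P = 0.106, adjusted 0.902), the farthest from 0 of the 19 named and further spots. PF4, the other granule chemokine (platelet factor 4, which binds heparin), was read by 2 further spots. Their group means lay between 4.41 and 4.66, with line estimates of -0.10 ± 0.13 and 0.01 ± 0.12 (SE, limma adjusted P = 0.921 and 0.996). PF4 thus gave overlapping groups as PPBP did.

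The fibrinogen receptor was read by 3 named ITGB3 spots (the beta 3 subunit) and 3 further spots, one for ITGB3 and a pair for ITGA2B (the alpha IIb subunit). Spot A_72_P223672 of ITGB3 ran from 3.11 over 3.67 to 4.35 in low RFI HF pigs and from 2.82 over 3.49 to 4.54 in low RFI LF pigs. In high RFI HF pigs it ran from 3.1 over 3.76 to 4.42, and in high RFI LF pigs from 3.33 over 3.61 to 4.95. The high RFI means (3.81 and 3.81) were above the low RFI means (3.64 and 3.58), but the line difference of -0.20 ± 0.12 (SE, limma adjusted P = 0.617) did not pass. Spot O9593 had group medians of 0.88, 0.72, 0.95 and 0.81 in the same order and a line difference of -0.14 ± 0.11 (adjusted P = 0.791). Within slides, the line estimate was below 0 on 5 of 6 slides for both spots. The further ITGB3 spot, which repeats the 60 bases of A_72_P223672, gave -0.20 ± 0.13 (SE, adjusted P = 0.651). Both ITGA2B spots had line estimates near 0 (-0.03 and -0.03) and group means between 4.02 and 4.19.

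The third ITGB3 spot, A_72_P762355, did not follow the other ITGB3 spots. Its raw intensity was between 365434 and 571504 on the 48 arrays, where A_72_P223672 spanned 2698 to 13660. Its log2 level moved little, from 9.89 to 11.09 over all pigs, with group medians of 10.29, 10.30, 10.21 and 10.18. Over pigs its r with A_72_P223672 was -0.21 and with O9593 -0.20 (permutation P = 0.16 and 0.17, n = 48), while the latter had r = 0.94 with each other. A run of 30 bases of this spot, from base 18 to base 47, also occurs in a spot named CYP24A1 (a vitamin D hydroxylase). The shared bases are shown, all in capitals:

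ITGB3 A_72_P762355, bases 18 to 47: GTTGCCGTGAGCTGTGGTGTAGGTTGCAGA

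The CYP24A1 spot was about as bright (mean level 10.46, against 10.26), and the levels of both spots followed each other over the pigs with r = 0.95. Over all retained spots, 118 reached an r of 0.7 with A_72_P762355, and MUC13, named after its value was seen and not among the spots sharing a run of bases, had r = 0.97. In all, 12 other retained spots shared a run of at least 16 bases with A_72_P762355. Those with a gene symbol were CYP24A1, RPL32 and ALG2, and the rest carried transcript or probe identifiers. Apart from CYP24A1, their r with A_72_P762355 ran from -0.32 to 0.45. The spot also fell as the median signal over background of the array rose (r = -0.77, rho = -0.77, permutation P = 1e-05, adjusted over 80 relations 0.0004; r = -0.73 without the 2 farthest arrays, and r = -0.80 with group and slide means removed), and it rose with the erythroid markers (r = 0.43, rho = 0.45, permutation P = 0.0025, adjusted 0.022). The part of signal over background or of the erythroid markers in its level was not tested. The array median is subtracted from each level and also enters signal over background, so these measures are not independent by construction. This holds for every spot, and P-values for signal over background do not test a relation apart from the scaling. Because the ITGB3 gene value is the mean of 3 spots, it includes this one. By the same run length, A_72_P223672 shared bases with 5 spots not tied to ITGB3, O310 of PPBP and O9593 of ITGB3 with 1 each, and the remaining 6 member spots with none, the RefSeq-named copies of PPBP and ITGB3 not counted.

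The von Willebrand receptor complex was read by 2 named GP9 spots and 1 further GP1BA spot. GP9, the small subunit that the complex needs to reach the surface, had on spot A_72_P440401 the narrowest spread of the 10: its SD within groups was 0.19, and 17.1% of all retained spots had a smaller one. Its values ran from 0.36 over 0.82 to 0.93 in low RFI HF pigs and from 0.49 over 0.81 to 1.38 in low RFI LF pigs. They ran from 0.60 over 0.81 to 1.06 in high RFI HF pigs and from 0.49 over 0.75 to 1.30 in high RFI LF pigs. The medians were within 0.07 of each other, and the line and diet differences were -0.02 ± 0.06 and -0.01 ± 0.06 (SE, limma adjusted P = 0.971 and 1.0). This spot rose with the median signal over background of the array (r = 0.45, rho = 0.42, permutation P = 0.0013, adjusted 0.015), and with group and slide means removed r was 0.16. Its bases were open in the first frame up to a stop codon at the end (in capitals).

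GP9 A_72_P440401: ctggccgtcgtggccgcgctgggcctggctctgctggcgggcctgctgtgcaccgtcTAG

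The other GP9 spot, A_72_P049871, had group means of -0.77, -0.73, -0.71 and -0.96 in low RFI HF, low RFI LF, high RFI HF and high RFI LF pigs, with a line difference of 0.08 ± 0.12 (SE, limma adjusted P = 0.940). It was nearly unrelated to A_72_P440401 (r = 0.11, rho = 0.08, permutation P = 0.47, n = 48). Instead it rose with the mean of 13 erythroid marker genes (r = 0.57, rho = 0.53, permutation P = 1e-05, adjusted 0.0004), also without the 2 farthest pigs (r = 0.52) and with group and slide means removed (r = 0.74). It fell with the mean of 11 T cell marker genes (r = -0.50, rho = -0.47, permutation P = 0.00035, adjusted 0.007; r = -0.41 without the 2 farthest pigs) and with that of 8 NK cell marker genes (r = -0.44, rho = -0.36, permutation P = 0.0014, adjusted 0.015; r = -0.30 without the 2 farthest pigs). Its r with the median signal over background was -0.29 (permutation P = 0.047, adjusted 0.22), and -0.65 with group and slide means removed. Erythroid markers were lowest in high RFI LF pigs (mean 2.19, against 2.5 to 2.52 in the other 3 groups), the group in which this spot was lowest too. Their part in the level of the spot was not tested. GP1BA, the subunit that binds von Willebrand factor, had a level between -0.99 and -0.17 on its further spot, a line difference of -0.03 ± 0.06 (SE, adjusted P = 0.967), and r = 0.60 with this GP9 spot (permutation P = 1e-05, n = 48). Both spots were dim, with raw intensities of 182 to 306 (GP1BA) and 117 to 380 (GP9 A_72_P049871).

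GP6, the collagen receptor, was among the dim members, with raw intensities of 99 to 268 on its single named spot O6957. The spot ran from -1.51 over -1.14 to -0.59 in low RFI HF pigs, from -1.71 over -1.23 to -0.60 in low RFI LF pigs, from -1.75 over -0.99 to -0.63 in high RFI HF pigs and from -1.30 over -1.08 to -0.76 in high RFI LF pigs. The groups overlapped, and the last was the tightest (SD 0.18, against 0.31 to 0.36). Its diet difference, 0.09 ± 0.09 (SE, limma adjusted P = 1.0), had the lowest unadjusted P of the 10 diet tests (0.285). The further GP6 spot gave a diet difference of 0.08 ± 0.07 and followed O6957 with r = 0.61 (permutation P = 2e-05, n = 48).

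TUBB1 was the one member with a line difference that passed the unadjusted threshold, and its 2 spots pointed in opposite directions. Spot A_72_P440531 ran from 0.57 over 1.02 to 2.01 in low RFI HF pigs and from 0.32 over 1.01 to 1.68 in low RFI LF pigs. In high RFI HF pigs it ran from 0.99 over 1.30 to 1.92, and in high RFI LF pigs from 0.81 over 1.27 to 2.49. Ranges overlapped, but 19 of 24 low RFI pigs were below the median of the high RFI pigs. The line difference was -0.29 ± 0.11 (SE; 95% confidence interval -0.51 to -0.07), 1.22-fold lower in low RFI pigs, with an unadjusted P = 0.0105 and a limma adjusted P = 0.175. On slides taken alone the difference lay between -0.69 and 0.11 and was below 0 on 5 of 6. Without high RFI LF replicate 11, the pig with the highest value, it was -0.24 (limma adjusted P = 0.241).

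Spot O10961 of TUBB1 ran from 1.65 over 2.0 to 2.22, 1.59 over 2.03 to 2.30, 1.66 over 1.92 to 2.30 and 1.5 over 1.81 to 2.49 in low RFI HF, low RFI LF, high RFI HF and high RFI LF pigs. Its line difference was 0.11 ± 0.06 (SE, limma adjusted P = 0.503), and 21 of 24 low RFI pigs were above the median of the high RFI pigs. The difference between both TUBB1 spots within a pig was -0.95 ± 0.45 in low RFI pigs and -0.55 ± 0.31 in high RFI pigs (SD, n = 24 each), a shift of -0.40 (permutation test, two-sided P = 0.00086; adjusted over the 6 pairs of spots of one gene, 0.0052). For the other 5 such pairs the adjusted P was 0.18 or more. Over pigs, r between both spots was small (r = 0.12, rho = -0.04, permutation P = 0.40, n = 48).

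Bases of O10961 are shown because tubulins resemble each other closely in coding sequence. The 60 bases were open throughout the first frame, and they shared no run of 16 bases or more with any other retained spot.

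TUBB1 O10961: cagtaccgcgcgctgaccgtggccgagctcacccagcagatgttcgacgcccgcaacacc

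The retained spots most like O10961 over the pigs were ones named TUBB8 (r = 0.84) and TUBB2B (r = 0.82), both other beta tubulins, followed by TPI1 (r = 0.81), a glycolytic enzyme, all named here after their values were seen. An r of 0.5 with O10961 was reached by 7.54% of all other retained spots. O10961 rose with the mean of T cell markers (r = 0.48, rho = 0.46, permutation P = 0.00058, adjusted 0.0093; r = 0.53 without the 2 farthest pigs). It also rose with the NK cell markers (r = 0.45, adjusted P = 0.015) and with median signal over background (r = 0.53, adjusted P = 0.0032). T cell markers averaged 1.60 and 1.59 in the low RFI groups and 1.44 and 1.5 in the high RFI groups, the direction of the line difference on this spot. NK cell markers did not run that way, with means of 1.73 and 1.79 in the low RFI groups and 1.73 and 1.88 in the high RFI groups. The part of either list in it was not tested. For A_72_P440531 none of the 8 relations with marker lists or array measures passed adjustment.

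**Figure D2:**
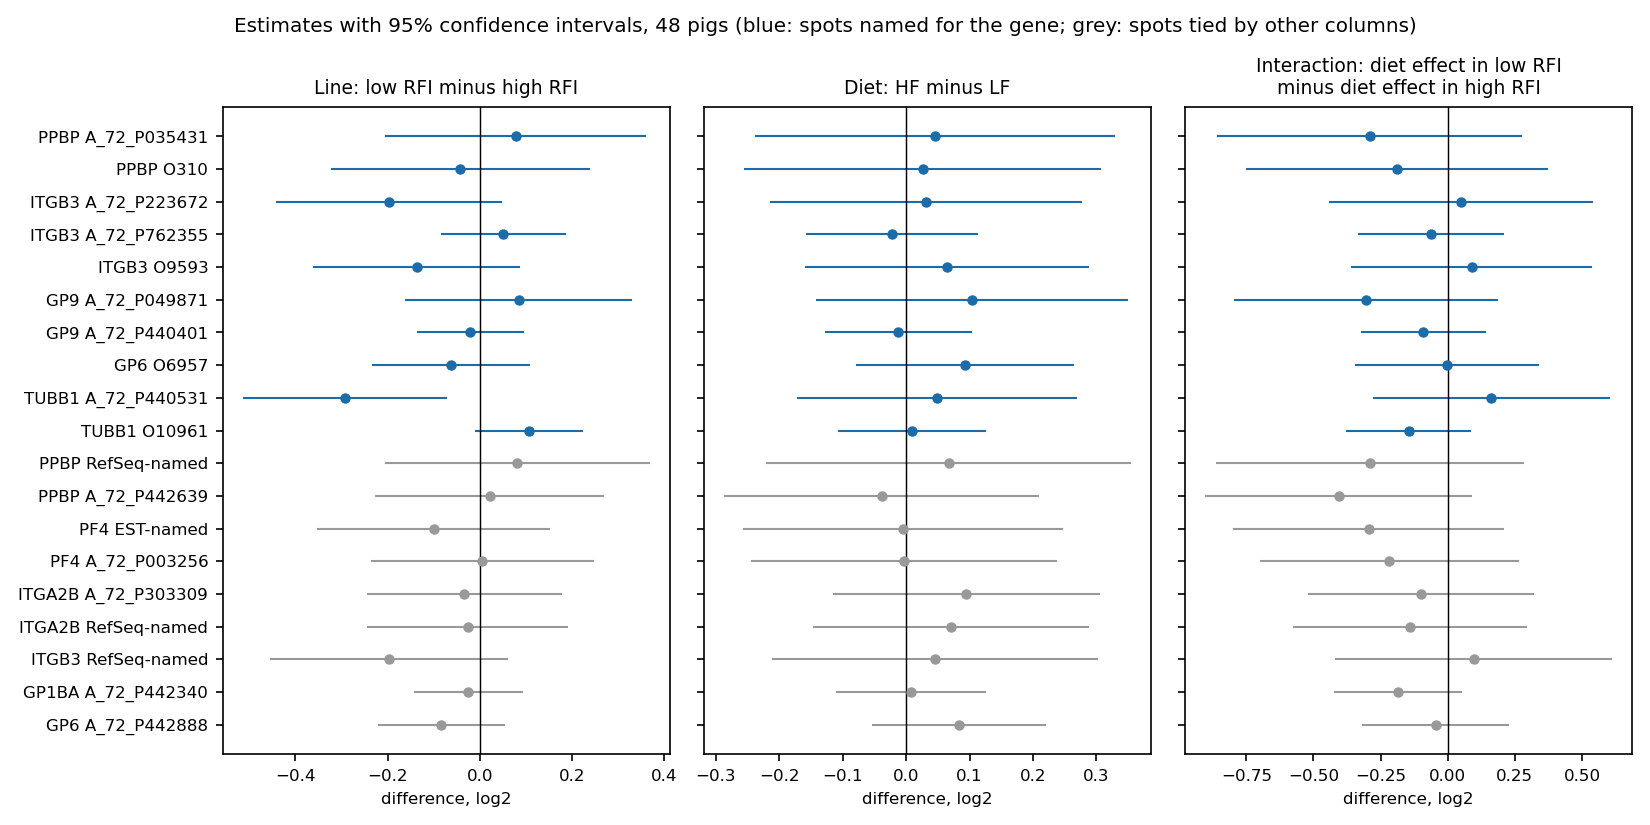
Line, diet and interaction estimates in log2 with 95% confidence intervals for the 10 member spots (blue) and 9 further spots (grey), from limma over 48 pigs. One of the 57 intervals, that of TUBB1 A_72_P440531 for line, excludes 0, and no estimate passed adjustment over all 37113 spots.

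Gene values, the mean of the spots of each gene, also gave no call. Of 27742 gene values, 2.77% passed for line and 0.0% for diet and for the interaction, and 0 of the 5 members passed any of them. At an unadjusted P under 0.05 the members again counted 0 of 5 for each effect, against 11.6% of all gene values for line, 1.61% for diet and 2.24% for the interaction. The line differences were 0.02 ± 0.14 for PPBP, -0.09 ± 0.08 for ITGB3, 0.03 ± 0.07 for GP9, -0.06 ± 0.09 for GP6 and -0.09 ± 0.07 for TUBB1 (SE). PPBP varied most among pigs of one group, with a within-group SD of 0.49 that exceeded 88.4% of all gene values. The other 4 had SDs of 0.24 to 0.30, around the 0.26 that was the median of all gene values. For ITGB3, GP9 and TUBB1 these are means that include a spot with a low or negative r to the rest of that gene. Some single spots spread more widely and others less. The SD was 0.44 on ITGB3 A_72_P223672, 0.40 on ITGB3 O9593, 0.44 on GP9 A_72_P049871 and 0.39 on TUBB1 A_72_P440531, above that of 79.5% to 84.7% of all retained spots. It was 0.23 on ITGB3 A_72_P762355, 0.19 on GP9 A_72_P440401 and 0.20 on TUBB1 O10961.

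While no group difference passed, most member spots rose and fell together from pig to pig. Of 45 pairs among the 10 named spots, 33 had r above 0, and 25 passed a permutation test adjusted over all 171 pairs of named and further spots (2 of these 25 with r below 0). The closest pairs of different genes joined TUBB1 A_72_P440531 with the ITGB3 spots A_72_P223672 (r = 0.78, rho = 0.69) and O9593 (r = 0.78, rho = 0.69), followed by PPBP A_72_P035431 with ITGB3 O9593 (r = 0.69, rho = 0.69; permutation P = 1e-05 and adjusted 2e-05 for each of the 3). With group and slide means removed, r of TUBB1 with ITGB3 A_72_P223672 was 0.77 and that of PPBP with ITGB3 O9593 was 0.77, and without the 2 farthest pigs they were 0.73 and 0.69. Within slides of 8 pigs the former ran from 0.48 to 0.94 and the latter from 0.61 to 0.88. GP9 A_72_P440401 followed ITGB3 A_72_P223672 with r = 0.65 (rho = 0.56, permutation P = 1e-05). GP6 was the loosest of these, with r = 0.33 to GP9 A_72_P440401 (permutation P = 0.021, adjusted 0.031) and 0.49 to ITGB3 O9593 (permutation P = 0.00039, adjusted 0.0007).

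A set of 7 spots rose together, and 3 were less close to it. Over the 21 pairs of the 7, chosen after their values were seen and therefore given without a test, r ranged from 0.33 to 0.94 with a median of 0.57. It ranged from 0.34 to 0.96 with group and slide means removed. The other 3 were ITGB3 A_72_P762355 (median r with the 7 of -0.17, range -0.39 to 0.05), GP9 A_72_P049871 (median 0.00, range -0.07 to 0.32) and TUBB1 O10961 (median 0.12, range -0.12 to 0.41). The separation was not complete: TUBB1 O10961 had r = 0.41 with GP9 A_72_P440401 (permutation P = 0.0034, adjusted 0.0056), above the lowest r within the 7, and GP9 A_72_P049871 had r = 0.32 with GP6 O6957 (permutation P = 0.028, adjusted 0.042). For scale, 1.15% of all other retained spots reached an r of 0.5 with ITGB3 A_72_P223672, 0.765% with PPBP A_72_P035431 and 0.916% with TUBB1 A_72_P440531. For GP9 A_72_P049871, 20.2% did, and for ITGB3 A_72_P762355, 7.15%.

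**Figure D3:**
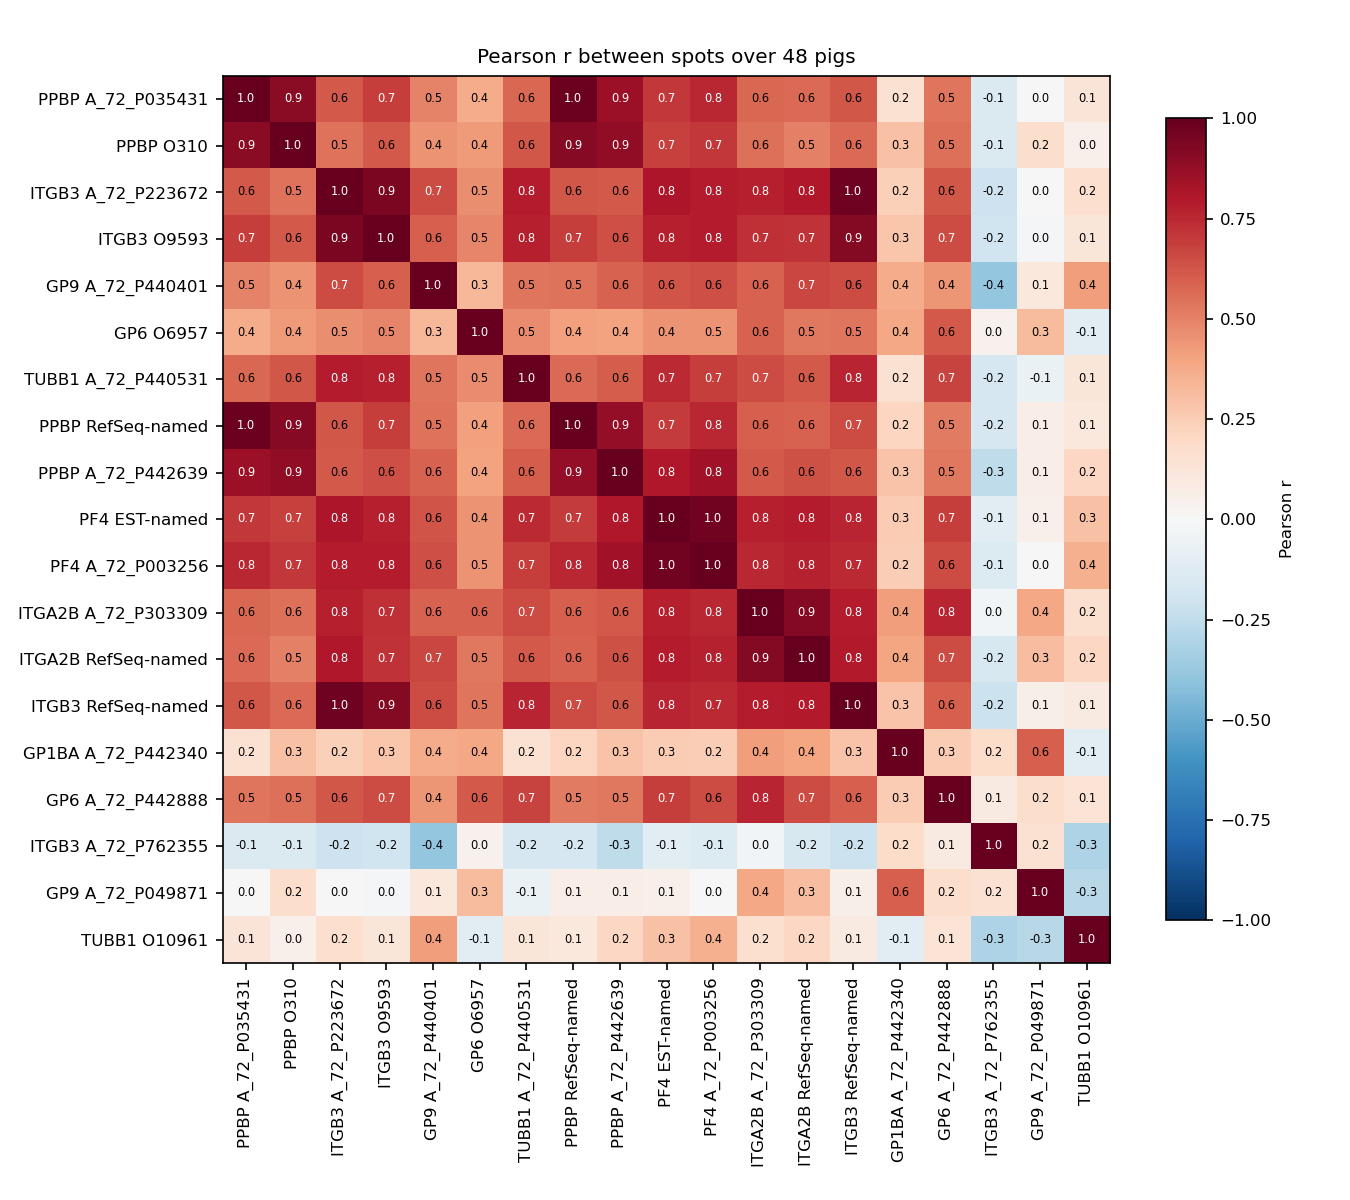
Pearson r over 48 pigs between all pairs of the 10 member and 9 further spots, on a scale from -1 (blue) to 1 (red). The last 3 rows, ITGB3 A_72_P762355, GP9 A_72_P049871 and TUBB1 O10961, are pale against the block formed by the rest; GP1BA is pale as well.

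Members without a named spot of their own joined in. The PF4 spot A_72_P003256 followed ITGB3 A_72_P223672 with r = 0.79, PPBP A_72_P035431 with r = 0.75 and TUBB1 A_72_P440531 with r = 0.69 (permutation P = 1e-05 each, n = 48). ITGA2B, whose protein pairs with that of ITGB3, had r = 0.78 and 0.80 with ITGB3 A_72_P223672 on its 2 spots (permutation P = 1e-05), and both spots of ITGA2B had r = 0.92 with each other. GP1BA, whose spot was dim (raw intensity 182 to 306), had lower r. Its r with the 7 spots ran from 0.16 to 0.38, and of these GP6 O6957 (r = 0.38, permutation P = 0.0075, adjusted 0.012) and GP9 A_72_P440401 (r = 0.37, permutation P = 0.009, adjusted 0.014) passed, while ITGB3 A_72_P223672 did not (r = 0.24, permutation P = 0.10, adjusted 0.14). It also passed with both ITGA2B spots (r = 0.42 and 0.39, permutation P = 0.003 and 0.0057, adjusted 0.0049 and 0.0091).

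A few pigs stood high on many spots at once. High RFI LF replicate 11 had the highest value of all pigs on 5 of the 10 member spots: PPBP O310, ITGB3 A_72_P223672, ITGB3 O9593, TUBB1 A_72_P440531 and TUBB1 O10961. Low RFI LF replicate 12 was highest on 2, PPBP A_72_P035431 and GP9 A_72_P440401. Without the former pig the r of the 7 spots ranged from 0.31 to 0.93. The r of ITGB3 A_72_P223672 with TUBB1 A_72_P440531 was then 0.73.

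**Figure D4:**
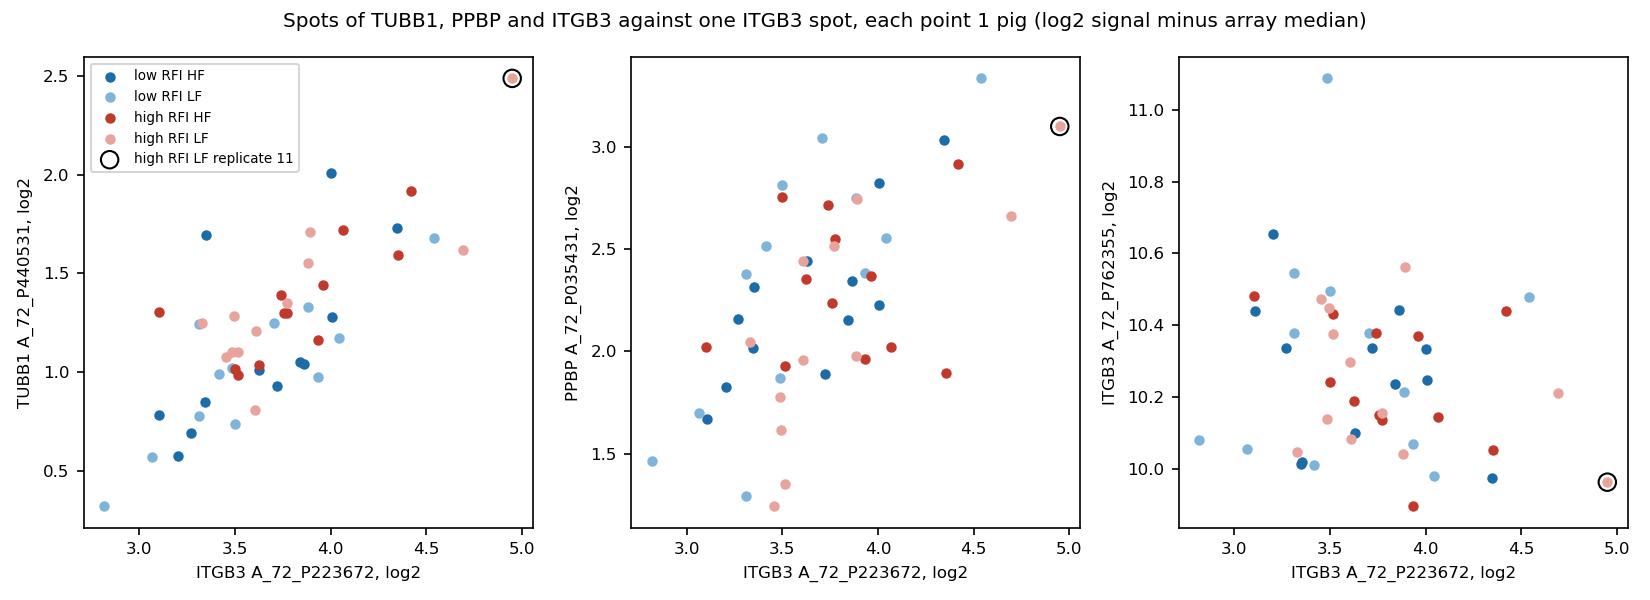
Levels (log2 signal minus array median) of TUBB1 A_72_P440531, PPBP A_72_P035431 and ITGB3 A_72_P762355 against ITGB3 A_72_P223672, 1 point per pig and coloured by group, with high RFI LF replicate 11 circled. Values rise together in the first panels (r = 0.78 and 0.62) and not in the last (r = -0.21).

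Gene values also rose together in most pairs. The strongest of 10 pairs was ITGB3 with TUBB1 (r = 0.68, rho = 0.67, permutation P = 1e-05, adjusted 5e-05), followed by PPBP with ITGB3 (r = 0.61, rho = 0.58, adjusted 5e-05), PPBP with TUBB1 (r = 0.56, rho = 0.55, adjusted 6.7e-05) and ITGB3 with GP6 (r = 0.51, rho = 0.56, adjusted 0.00055). PPBP with GP6, GP9 with GP6 and GP6 with TUBB1 also passed (r = 0.41, 0.41 and 0.36). The 3 pairs of GP9 with PPBP, ITGB3 and TUBB1 did not (r = 0.27, 0.24 and 0.09, adjusted P = 0.083, 0.12 and 0.54). With the brightest spot of each gene in place of the mean, r of ITGB3 with TUBB1 was -0.31 and that of PPBP with ITGB3 -0.15. The brightest ITGB3 and TUBB1 spots are among the 3 that stood outside the set.

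The gene values most like the members included several platelet genes. By median r over the 5 members (48 pigs), the highest were TPM4 (0.75), a tropomyosin of the platelet cytoskeleton, and FHL1 (0.75), a LIM domain protein. PF4 came next on one of its 2 spots (0.74) and again on the other (0.71). GP1BB (0.70), partner of GP9 in the von Willebrand receptor, and CMTM5 (0.69) followed, and the remaining 4 of the first 10 (0.65 to 0.73) carried transcript identifiers with no symbol. Over all 27737 gene values that are not members, the median was 0.01 and the 95th percentile 0.21. The single nearest gene value was the RefSeq-named spot of the same gene for PPBP (r = 0.97) and ITGB3 (0.92), TMEM86A for GP9 (0.89), NCK2 for TUBB1 (0.82) and an unnamed transcript for GP6 (0.67). For GP9 and TUBB1 these neighbours go with gene values that include the spots standing apart.

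Other platelet genes, taken from 5 lists, are given here by counts. Of 92 listed genes, 63 had a gene value. For line, 1 was higher and 1 lower in low RFI pigs at an adjusted P under 0.05, that is 3.17% against 2.77% of all gene values, and for diet and the interaction there were 0 and 0, with the smallest adjusted P at 1.0 and 0.892. At an unadjusted P under 0.05, 12 passed for line (19%, against 11.6% of all gene values), 2 for diet (3.17% against 1.61%) and 0 for the interaction (against 2.24%). The median line effect over the 63 was -0.03, where that over all gene values was 0.02. By list, the median line effect was -0.05 for 13 granule cargo genes, 0.00 for 12 receptors, -0.06 for 17 signalling genes, -0.01 for 14 cytoskeletal genes and 0.02 for 7 megakaryocyte transcription factors.

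The gene that fell was CLU, clusterin, a secreted chaperone that platelets store and that other tissues also make. It averaged 2.76 ± 0.54 in low RFI and 3.54 ± 0.41 in high RFI pigs (SD, n = 24 each), a difference of -0.78 ± 0.14 (SE, limma adjusted P = 0.00021), with 22 of 24 low RFI pigs below the high RFI median. The gene that rose was P2RY1, a purinergic receptor through which ADP activates platelets. Its means were -0.53 ± 0.33 and -0.82 ± 0.23 (SD), a difference of 0.29 ± 0.08 (SE, adjusted P = 0.0411), and 20 of 24 low RFI pigs were above the high RFI median. P2RY1 lost its call when all non-control probes were tested (adjusted P = 0.0644), its brightest spot was taken (0.269) or the deposited column was used without the rebuild (0.824). Of the 63 genes, 35 had a lower and 28 a higher line estimate in low RFI pigs. That split over all gene values is not given here. Of the 12 genes under an unadjusted P of 0.05 for line, 9 were lower and 3 higher in low RFI pigs. Besides CLU and P2RY1, they did not pass adjustment and are named here after their values were seen. The lower ones were SYK (-0.52), MYL9 (-0.26), THBS1 (-0.25), SELP (-0.24), MYLK (-0.23), MCTP1 (-0.19), RASGRP2 (-0.18) and TPM1 (-0.17), and the higher ones LCP2 (0.20) and RGS10 (0.14), with adjusted P from 0.0601 (MYLK) to 0.337 (MYL9). MYLK, the myosin light chain kinase, passed with slide as a block (adjusted P = 0.0363), with the replicate block (0.0225), with normexp and quantile normalization (0.0428) and with processed signals (0.0396 and 0.0358). SYK (adjusted P = 0.0186) and TPM1 (0.0248) passed with the brightest spot of each gene.

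Many listed platelet genes rose and fell with the members over the pigs. A median r with the 5 members above the 95th percentile of all gene values was found for 11 of 14 cytoskeletal genes, 8 of 13 granule cargo genes, 5 of 12 receptors, 5 of 17 signalling genes and 1 of 7 transcription factors. SELP (0.59), F5 (0.56) and VWF (0.53), all alpha granule cargo, SDPR (0.65), and MYLK (0.58), TUBA4A (0.58) and MYL9 (0.53) of the cytoskeleton, named after their values were seen, were among them. CLU was at 0.27 and P2RY1 at 0.19. Of 60 markers of erythroid cells, neutrophils, monocytes, B cells, T cells and NK cells, 0 were above it. These counts are a description and carry no test, as the lists share pigs, arrays and scaling.

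**Figure D5:**
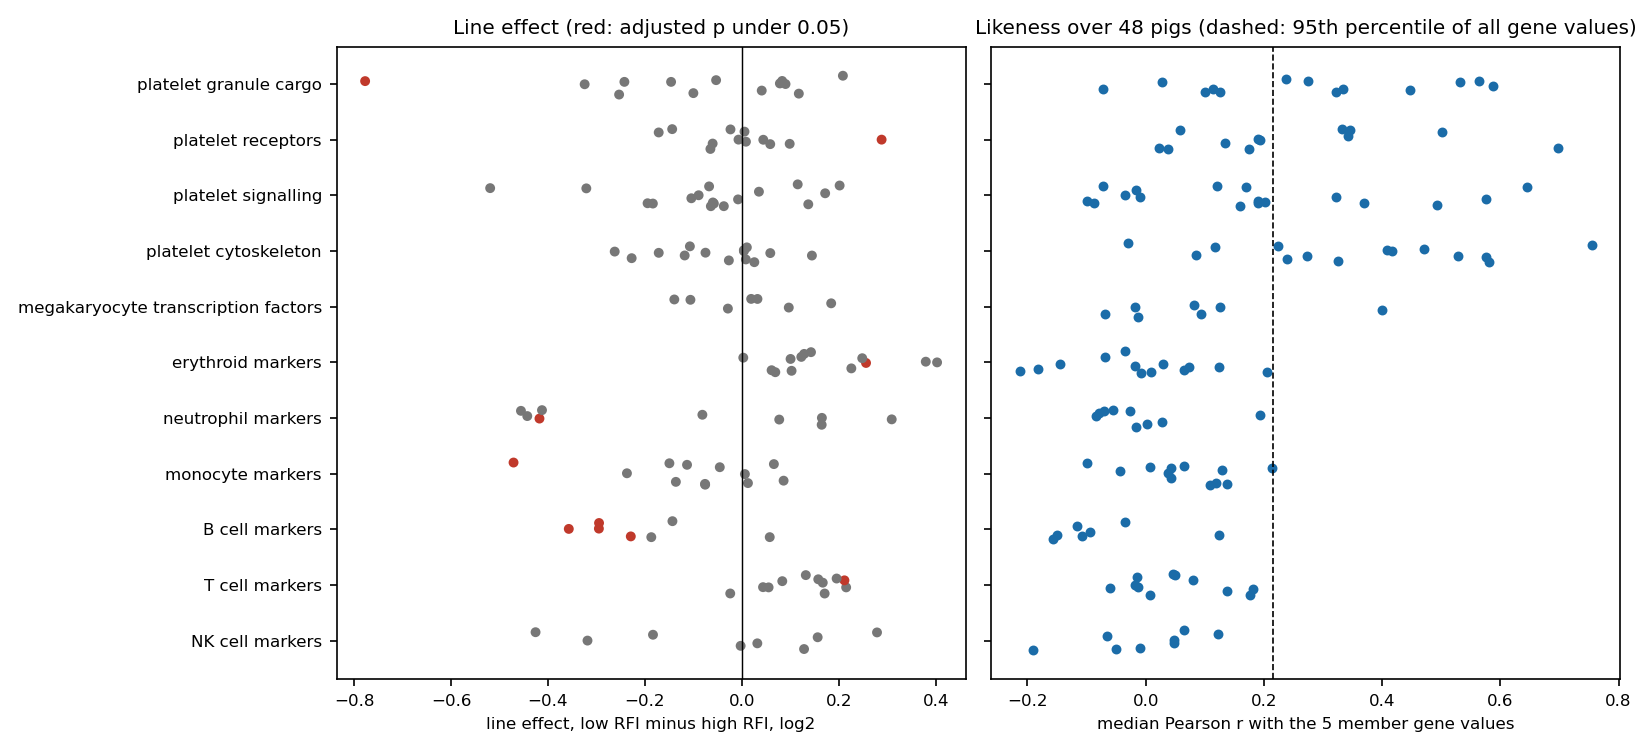
Left, line effect (low RFI minus high RFI, log2) of each gene of the platelet and blood cell marker lists, red where the adjusted P was under 0.05. Right, the median Pearson r of each gene with the 5 member gene values over 48 pigs; platelet lists reach 0.75 while no marker gene passes the dashed line at 0.21, the 95th percentile of all gene values.

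Some markers of other blood cells passed for line; whether they and the members differ in this was not tested. Of 60 marker genes, 8 passed for line, where 2.77% of all gene values did. They included, named after their values were seen, SLC4A1 of erythroid cells and LCK of T cells, higher in low RFI pigs (0.26 and 0.21), and CXCR2 of neutrophils, CD14 of monocytes and MS4A1, BLNK and FCRLA of B cells, lower (-0.23 to -0.47). Line estimates were above and below 0 for 13 and 0 erythroid genes, 10 and 1 T cell genes and 4 and 4 NK cell genes. For neutrophil genes the counts were 4 and 5, for monocyte genes 4 and 8, and for B cell genes 1 and 6.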

How the data were processed

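Whole blood RNA of 48 pigs was hybridised to single-colour Agilent arrays and read with Feature Extraction 10.7.3.1 (per the file headers). The authors filtered spots on background, diameter, saturation and uniformity and, per the labels, used R 3.0.2. The deposited log2 values equal the log2 of the median spot intensity, minus the array median over 37113 retained spots. For 1 pig, high RFI HF replicate 1, the deposited values departed from its scanner file, so they were recomputed from the deposited intensity values by that formula. The scanner's deposited quality calls are 0 or 1 scores per spot.

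Values were fitted with limma 3.58.1 in R 4.3.3 (line, diet and interaction; all 48 pigs), and P-values were adjusted by Benjamini-Hochberg over all spots or all gene values. Gene values are means of the retained spots with one gene name. Correlations used 100000 two-sided permutations (Python 3.11.15). On simulated data, a line change of 0.5 in 200 of 37113 spots was recovered for 85.0%, and an interaction of 0.5 for 27.0%. The changed spots were drawn at random from all retained spots (median within-group SD 0.26). Recovery was not measured separately for spots as variable as those of PPBP (SD 0.51 and 0.50). The labels give one sample per pig.

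The members and gene lists were chosen with earlier results of these data known. Named were all members, listed platelet genes past the adjusted threshold, and the gene values with the highest r to the members; all other genes named, blood cell markers included, were chosen after their values were seen. Spots were matched by name, with no genome build at hand. Alternatives covered the test, signal, background correction, scaling, probe filters, slide, replicate number, the rebuilt column, the prior and the brightest spot of a gene.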

Additional observations from a re-analysis of the deposited data

How the results depend on the processing

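The count of member spots and member gene values past the adjusted threshold was 0 for line, diet and interaction under each setting tried. Of 555 estimates under these settings, 527 kept their sign and 28 turned. Line estimates of TUBB1 A_72_P440531 stayed between -0.36 and -0.24 (adjusted P from 0.127 to 0.274). The labels do not say that a replicate number marks shared pigs or days. Deviations of same-numbered pigs had a median r of 0.20 over 72 pairs (-0.60 to 0.71), against -0.05 for other numbers and -0.0084 for other numbers on the same slide. Not every same-numbered pair was above 0.1, so the block was kept as an alternative: with the replicate block 1496 spots in all passed for line in place of 1027, and 0 member spots. Slide as a block gave 1311.

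Using the deposited column as it stands moved the median of all spots to -0.10 for line, 0.11 for diet and -0.22 for the interaction, and 265 spots then passed for line. With it, line was -0.0349 for GP9 A_72_P049871 and -0.0675 for the GP9 gene value, diet was -0.00752 for ITGB3 A_72_P223672, 0.0671 for GP9 A_72_P440401 and -0.0679 for the ITGB3 gene value, and the interaction was 0.561 for ITGB3 A_72_P762355, -0.0571 for ITGB3 O9593 and -0.0956 for the TUBB1 gene value. The r of ITGB3 with GP9, GP6 and TUBB1 was then -0.576, -0.528 and -0.0762.

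With the brightest spot of each gene, the line effect was 0.107 for TUBB1, -0.0209 for GP9, -0.0421 for PPBP and 0.0504 for ITGB3. Diet was -0.0121 for GP9 and -0.022 for ITGB3, and the interaction was -0.145 for TUBB1 and -0.0624 for ITGB3. The r of ITGB3 with PPBP, GP9 and TUBB1 was -0.147, -0.389 and -0.31, and that of GP6 with TUBB1 -0.116. The TUBB1 interaction was -0.0178 with normexp and quantile normalization, -0.0217 with processed signals at the 75th percentile and -0.0129 with median-centred processed signals. The within-group SD of GP9 was 0.287 and 0.295 with processed signals centred on the median and on the 75th percentile.

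Leaving out high RFI HF replicate 1 or high RFI LF replicate 11 (the latter chosen after seeing the data), the line effect was -0.0324 and 0.00969 for PPBP O310, and -0.0217 and 0.00201 for GP9 A_72_P440401, whose diet effect was -0.0113 and 0.0108. The interaction was in that order 0.0201 and -0.0267 for GP6 (1 spot, so also its gene value), 0.0338 and -0.0532 for ITGB3 A_72_P223672, -0.0088 and -0.0696 for the TUBB1 gene value, and 0.0186 and -0.0294 for the ITGB3 gene value. All alternatives for the platelet lists were also chosen after seeing the data: 1 gene passed for line (CLU) with all non-control probes and 1 (CLU) with the deposited column, in place of 2, and 3 passed with the replicate block, with slide as a block, with normexp and quantile normalization and with both processed signals (CLU, P2RY1 and MYLK), and with the brightest spot (CLU, SYK and TPM1). The cause of these changes was not tested.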
